A study of Mus musculus with 10 samples.

Results

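Constitutively open distal sites without H3K4me3 were regions of the mouse genome that were accessible in every state of neural stem and progenitor cells (NSPCs) examined, lay away from promoters and carried no called H3K4me3. Peaks of all 6 ATAC-seq lists on chromosomes 1 to 19 were merged where they overlapped or abutted, which gave 105302 sites. Of these, 22589 (21.5%) had a peak in all 6 lists. The distal sites without H3K4me3 were the 8267 among them that did not overlap the 1 kb on either side of any annotated transcription start site (TSS, mm10) and did not overlap an H3K4me3 peak of either state. They made up 36.6% of the sites in all 6 lists (exact binomial 95% interval 36.0 to 37.2%) and 7.85% of all merged sites, and covered 4.45 Mb. The sites were chosen by presence in the lists, distance to a TSS and absence of H3K4me3 peaks, so these properties are described below and not tested.

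NSPCs were primary cells from the brains of C57BL/6 mice at postnatal day 5, with no transgene or engineered allele named in the labels. All groups received 20 ng/ml of FGF2. Activated NSPCs also received 20 ng/ml of EGF. Quiescent NSPCs were kept without EGF and with 25 ng/ml of BMP4, for 4 days by the sample labels, whereas the methods give a shorter time for ATAC-seq. Reactivated NSPCs spent 4 days in the quiescent medium and then 9 to 12 days in the activating medium. ATAC-seq was done with 2 libraries in each state, which the study describes as biological replicates. H3K4me3 ChIP-seq was done with 1 library each in quiescent and activated NSPCs, so the sites were not tested for this mark in reactivated NSPCs. These cultures hold stem cells and progenitors together, and in such bulk samples fewer open cells and less open chromatin per cell cannot be told apart.

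In ATAC-seq, the transposase Tn5 inserts adapters where DNA is not covered by nucleosomes, so reads pile up at promoters, enhancers and the binding sites of insulator proteins. H3K4me3, the trimethylation of lysine on histone H3 near active start sites, marks promoters, and open sites without it include enhancers and sites bound by CTCF, the zinc finger protein that holds chromatin loops and domain borders in place. In NSPCs, the nuclear factor I (NFI) proteins, basic helix-loop-helix (bHLH) proteins, SOX proteins and RFX proteins bind distal elements, the bHLH proteins at E-boxes and the RFX proteins at X-boxes.

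The sequences around the summits of 10 of the distal sites are printed with 100 bp on either side of the median of the 6 summits, on the plus strand of GRCm38.p6 (the assembly behind mm10). The first 4 are among the strongest sites with each motif, match no mitochondrial DNA, and carry in capitals a CTCF motif, an NFI palindrome, an X-box for RFX and a SOX motif, in this order.

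chr1:135753032-135753232: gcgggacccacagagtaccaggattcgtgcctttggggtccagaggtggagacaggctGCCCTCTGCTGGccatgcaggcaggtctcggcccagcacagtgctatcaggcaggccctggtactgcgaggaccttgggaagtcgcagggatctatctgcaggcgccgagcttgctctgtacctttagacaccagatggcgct
chr6:57641860-57642060: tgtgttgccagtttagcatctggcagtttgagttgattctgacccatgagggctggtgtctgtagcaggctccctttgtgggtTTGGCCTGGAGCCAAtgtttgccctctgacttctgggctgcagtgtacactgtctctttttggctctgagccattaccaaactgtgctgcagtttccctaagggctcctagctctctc
chr2:148478423-148478623: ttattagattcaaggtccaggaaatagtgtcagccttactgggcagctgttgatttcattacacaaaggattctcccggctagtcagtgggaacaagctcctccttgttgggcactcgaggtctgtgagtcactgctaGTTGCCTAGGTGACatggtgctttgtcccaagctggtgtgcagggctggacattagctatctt
chr17:63285370-63285570: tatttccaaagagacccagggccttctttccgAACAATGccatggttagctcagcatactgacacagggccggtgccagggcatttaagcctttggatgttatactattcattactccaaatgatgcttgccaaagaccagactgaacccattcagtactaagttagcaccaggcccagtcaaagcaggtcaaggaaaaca

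The next 5 are sites with a large difference between activated and quiescent NSPCs, the first 3 higher in activated and the last 2 higher in quiescent, and the final one lies upstream of Fgfr3, which encodes an FGF receptor. In these, capitals mark matches to E-box CAGCTG, AP-1, the NFI element TTGGC, SOX, TEAD, RFX, CTCF and homeodomain motifs, wherever present, on either strand.

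chr1:104746900-104747100: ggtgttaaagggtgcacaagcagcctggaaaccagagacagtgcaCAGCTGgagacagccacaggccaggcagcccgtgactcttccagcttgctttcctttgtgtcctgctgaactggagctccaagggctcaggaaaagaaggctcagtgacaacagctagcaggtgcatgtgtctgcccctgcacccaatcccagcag
chr7:59027535-59027735: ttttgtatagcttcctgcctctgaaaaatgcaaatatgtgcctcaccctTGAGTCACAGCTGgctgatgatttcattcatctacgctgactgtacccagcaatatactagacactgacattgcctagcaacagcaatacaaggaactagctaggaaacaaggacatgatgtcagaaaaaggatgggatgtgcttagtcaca
chr3:8830950-8831150: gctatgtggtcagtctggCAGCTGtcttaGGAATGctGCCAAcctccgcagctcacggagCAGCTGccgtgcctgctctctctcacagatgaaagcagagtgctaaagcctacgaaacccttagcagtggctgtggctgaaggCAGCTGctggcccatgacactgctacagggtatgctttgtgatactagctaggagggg
chr9:6986229-6986429: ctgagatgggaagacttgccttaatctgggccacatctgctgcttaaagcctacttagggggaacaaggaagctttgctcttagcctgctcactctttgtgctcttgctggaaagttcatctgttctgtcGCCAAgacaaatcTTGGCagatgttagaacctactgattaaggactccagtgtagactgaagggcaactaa
chr10:69326545-69326745: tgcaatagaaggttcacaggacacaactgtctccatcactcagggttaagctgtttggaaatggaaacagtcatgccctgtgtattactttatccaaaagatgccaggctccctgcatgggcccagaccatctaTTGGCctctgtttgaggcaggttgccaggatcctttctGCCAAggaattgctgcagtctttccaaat
chr5:33705305-33705505: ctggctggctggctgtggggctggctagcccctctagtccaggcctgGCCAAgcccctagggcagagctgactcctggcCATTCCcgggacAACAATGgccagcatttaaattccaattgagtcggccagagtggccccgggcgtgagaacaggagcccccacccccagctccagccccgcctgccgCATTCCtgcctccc

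The first 3 of these lines hold E-boxes, and the second has an AP-1 site directly beside its E-box, whereas the 2 quiescent lines hold only NFI elements in capitals. These 2 were taken from the 3 of the 5 leading quiescent sites with an NFI element, and the other 2, the largest difference among them, hold none of the marked motifs. The chr9 line also holds the E-box CAGATG, which is not capitalised. The values at these sites are given with the comparison of states.

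Each list gives for a peak its fold enrichment, the pileup of reads at the summit over the local background of the same library. The 6 lists held 47323 to 107137 peaks, and the genome background, recovered from the deposited values, was a pileup of 6.01 to 12.1. Local background equalled it at 63.5 and 80.9% of distal sites in the quiescent lists and 63.6 and 68.0% in the activated. In the reactivated lists the shares were 27.2 and 33.5%. The lowest pileup among 3000 peaks sampled from each list was 16 to 25. A site with too few reads over its local background was not detectable as open. The lists of H3K4me3 on these chromosomes held 16584 peaks in quiescent and 15417 in activated NSPCs. Of 12 NSPC marker genes, 11 had a promoter peak in all 6 lists. No such promoter was found among 5 genes of microglia, 5 of endothelium and 4 of oligodendrocytes, and 2 of 5 neuronal genes had one. The promoters of P2ry12 (microglia) and Kdr (endothelium) had a peak in 5 lists, that of Mbp (oligodendrocytes) in 3, and the part of such cells in the results was not tested.

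The distal sites were short and placed in introns and between genes. Their median width was 510 bp (quartiles 380 and 657 bp, range 161 to 2594 bp). By their summits 4346 (52.6%) lay in introns, 3572 (43.2%) between genes and 349 (4.22%) in exons. The 64962 distal sites without H3K4me3 that had peaks in 1 to 5 lists fell into the same places, with 52.7% in introns and 42.3% between genes, although they were narrower, with a median of 240 bp. GC content within 100 bp of the summit had a median of 52.2%, against 66.7% at the 11234 promoter sites with H3K4me3 in all 6 lists. The whole set of merged sites, promoters included, also had a median of 52.2%. Among the other distal sites without H3K4me3, those in 1 to 5 lists had a median of 50.25%. Those open in both quiescent and no activated list had 48.8%, and those open in both activated and no quiescent list 51.7%. The part of these differences in the shares of motifs and words given below was not tested.

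The median distance from a summit to the nearest TSS of any kind was 13890 bp (10th percentile 2967 bp). To the nearest TSS of a protein-coding gene it was 26470 bp, and 1664 distal sites (20.1%) lay over 100 kb from any. From the edge of the nearest H3K4me3 peak the median distance was 42230 bp, and 6927 sites (83.8%) were over 10 kb away. At the limit of the promoter window, 63 sites had their edge at most 100 bp beyond it. Another 61 sites without H3K4me3 were left out because they reached at most 100 bp into it. The median fold enrichments of both groups, as means over the 6 lists, were 6.14 and 6.04. Within 100 bp of an H3K4me3 peak lay 41 of the sites, and 87 distal sites were left out for an overlap of at most 100 bp.

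The requirement of a peak in every list left out 5017 distal sites without H3K4me3 that had peaks in 5 lists. The missing list was activated replicate 2 for 2139 of them and quiescent replicate 1 for 1396, but reactivated replicate 1 or 2 for only 64 and 59. Activated replicate 2 was the shortest list and the reactivated lists were the longest. The median fold enrichment of the 5017 over their lists was 5.10.

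The 6 summits of a distal site lay close together. The distance between the outermost summits had a median of 49 bp, and it was at most 50 bp at 4243 sites (51.3%) and over 500 bp at 82. Most distal sites (6625, or 80.1%) stood alone, with no other within 12.5 kb.

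Fold enrichment at the distal sites was lower than at promoters with H3K4me3 in every library. Its median was 5.00 in quiescent replicate 1 and 4.51 in quiescent replicate 2. In activated NSPCs it was 5.97 and 4.99, and in reactivated NSPCs 9.41 and 9.47. At promoters with H3K4me3 the medians were 7.35 and 7.21 (quiescent), 8.92 and 7.55 (activated) and 11.5 and 12.1 (reactivated). At the 1069 promoters without H3K4me3 in all 6 lists the medians were slightly below those of the distal sites, at 4.73 and 4.34, 5.70 and 4.83, and 8.72 and 9.04. The higher values of the reactivated libraries held for every class of site, so levels are compared between states only after each list was centred on the median of the 22589 sites.

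**Figure D1:**
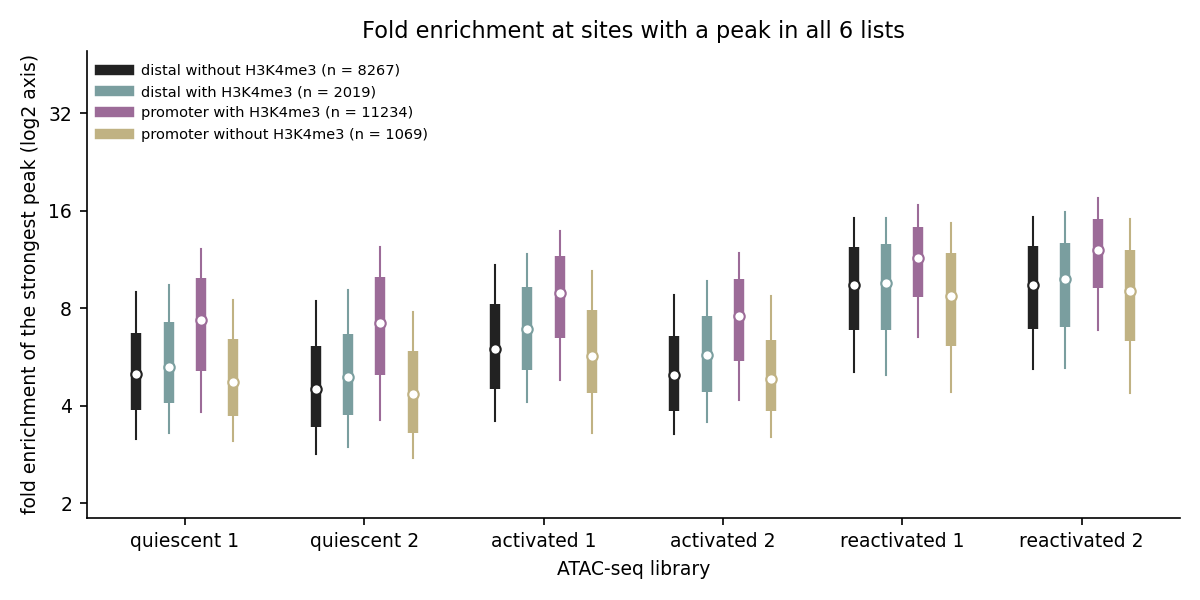
Fold enrichment (log2 axis) of the strongest peak in each ATAC-seq library for the 4 classes of sites with a peak in all 6 lists; circles are medians, thick bars the quartiles and thin lines the 10th to 90th percentiles over sites. In every library the distal sites without H3K4me3 lie below the promoters with H3K4me3, and the reactivated libraries are highest for all classes.

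The place of a distal site within its own list varied widely. Averaged over the 6 lists, the percentile of fold enrichment had a median of 68.0, with quartiles of 56.2 and 79.3. Replicates ordered the sites alike. Over the 8267 sites, log2 fold enrichment of the 2 libraries of a state had a Pearson r of 0.85 in quiescent, 0.83 in activated and 0.88 in reactivated NSPCs. Between libraries of different states r was 0.45 to 0.68, highest between activated and reactivated libraries. These correlations are across sites, which are not replicates, and all lists share the local sequence and mappability of a site.

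The strongest sites by this percentile were not typical of the rest. The 10 at the top had fold enrichments of 32.5 to 58.9 in all 6 lists. Of these, 5 matched the mitochondrial genome and 3 others were repeat-masked in most of the window. The first, chr2:69355469-69355735, an intergenic site 12982 bp upstream of Abcb11, matched mitochondrial DNA over 129 bp. The quiescent libraries had fold enrichments of 47.0 and 47.1 there, the activated ones 55.5 and 55.0 and the reactivated ones 58.9 and 58.6. Copies of mitochondrial DNA in the nuclear genome can collect reads of the organelle, whose DNA carries no nucleosomes; the part of such reads in these values was not tested. In all, 7 of the 8267 sites matched mitochondrial DNA.

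A further group stood out by its local background, the pileup that MACS expects from the surrounding kilobases. This was at least 3 times the genome background in all 6 lists at 133 distal sites (1.61%), against 0.965% of all sites in all 6 lists. None of the 133 held a CTCF motif, 45.9% were repeat-masked in most of the window and their median percentile was 11.3. The longest runs of distal sites of any local background, joined within 12.5 kb, held 33 sites at chr5:14918679-15062655 and 25 sites at chr5:15598639-15712565, both among Speer4 genes, a rodent gene family of the testis. A run of 6 lay at Sfi1 (chr11:3153722-3173795). None of the 64 sites in these 3 runs was called between activated and quiescent NSPCs, beside 21.7% of all distal sites. The runs had median percentiles of 10.9, 11.4 and 12.4. Among the weakest 25% of distal sites, 3.0% were higher in activated and 4.64% in quiescent. Runs of 8 sites at chr5:15482862-15518024 and of 6 at chr10:3109499-3117120 also held no call. Repeats covered most of the window at 318 distal sites. Neither property applied to 7877 sites (95.3%).

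Motifs were searched as exact matches on both strands within 100 bp of the median summit. The CTCF core motif was present at 494 distal sites, 5.98% (95% interval 5.47 to 6.51%). It was found at 4.77% of the distal sites without H3K4me3 in 1 to 5 lists and at 1.12% of promoters with H3K4me3. Promoters without H3K4me3 in all 6 lists had 5.80% (interval 4.48 to 7.37%), close to the distal sites, and distal sites with H3K4me3 had 4.01%. Among distal sites open in both quiescent and no activated list it was at 2.24%, and among those open in both activated and no quiescent list at 2.096%, so that the constitutively open sites held it more often than the sites of either state. Over all merged sites the share was 4.17%. With up to 1 mismatch, a search chosen after the data were seen, 1478 distal sites (17.9%) matched, against 13.4% of all merged sites. These intervals cover counting error only, and sites of 1 genome are not replicates.

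The X-box of RFX proteins was at 222 distal sites (2.69%, interval 2.35 to 3.06%). It was at 1.39% of the distal sites in 1 to 5 lists, at 0.771% of the quiescent sites, at 2.97% of the activated sites and at 1.56% of all merged sites. Among sites in all 6 lists, distal sites with H3K4me3 had 3.32% and promoters without it 2.90%. An NFI palindrome of 4 matching bases on each side, chosen after the data were seen, was at 324 (3.92%), against 2.43% of the distal sites in 1 to 5 lists and 2.21% of all merged sites. It was at 1.95% of the quiescent and 3.96% of the activated sites, the latter close to the constitutively open sites. Distal sites with H3K4me3 in all 6 lists had 2.72% and promoters without it 3.09%. With 5 bases on each side the palindrome was at only 15 sites. The single NFI element TTGGC was at 4414 (53.4%), against 45.6% of the distal sites in 1 to 5 lists and 44.8% of all merged sites. It was at 54.5% of the quiescent and 47.4% of the activated sites. A short element of this kind is frequent in any window, and it shares bases with the NFY motif CCAAT where the letters run ATTGGC.

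The E-box CAGCTG was at 2235 distal sites (27.0%) and CAGATG at 1712 (20.7%), against 21.7% and 17.7% of all merged sites. In the distal sites without H3K4me3 of 1 to 5 lists they were at 23.1% and 20.4%, so CAGATG was about as frequent there. Among sites in all 6 lists, CAGCTG was at 23.9% of distal sites with H3K4me3 and 28.25% of promoters without it. For CAGCTG the constitutively open sites lay between the quiescent sites (15.1%) and the activated sites (46.6%). The AP-1 motif, TGACTCA or TGAGTCA, had the same order, with 6.91% of the constitutively open sites, 4.74% of the quiescent and 11.2% of the activated sites, and 5.51% of all merged sites. SOX motifs (AACAATG) were at 3.68%, 2.83%, 6.61% and 3.38%. Among distal sites without H3K4me3 in 1 to 5 lists, AP-1 was at 6.42% and SOX at 4.04%, which for SOX is above the constitutively open sites. The homeodomain motif TAATTA had another order, with 4.33% of the constitutively open, 7.16% of the quiescent and 3.58% of the activated sites.

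The GC box, ETS motif and cAMP response element of promoters with H3K4me3 were few. The NFY motif CCAAT was more frequent, at 22.8% of the distal sites, 34.2% of promoters with H3K4me3 and 23.7% of all merged sites. The GC box GGGCGG was at 6.05% of the distal sites and 65.7% of promoters with H3K4me3, the ETS motif CCGGAAG at 1.43% and 15.7%, and the cAMP response element TGACGTC at 0.629% and 5.68%. TEAD (CATTCC, 13.7%), POU (ATGCAAA, 4.75%) and FOX (TGTTTAC, 2.52%) motifs stood within 1 percentage point of the other distal sites without H3K4me3 (13.1%, 4.46% and 2.71%).

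**Figure D2:**
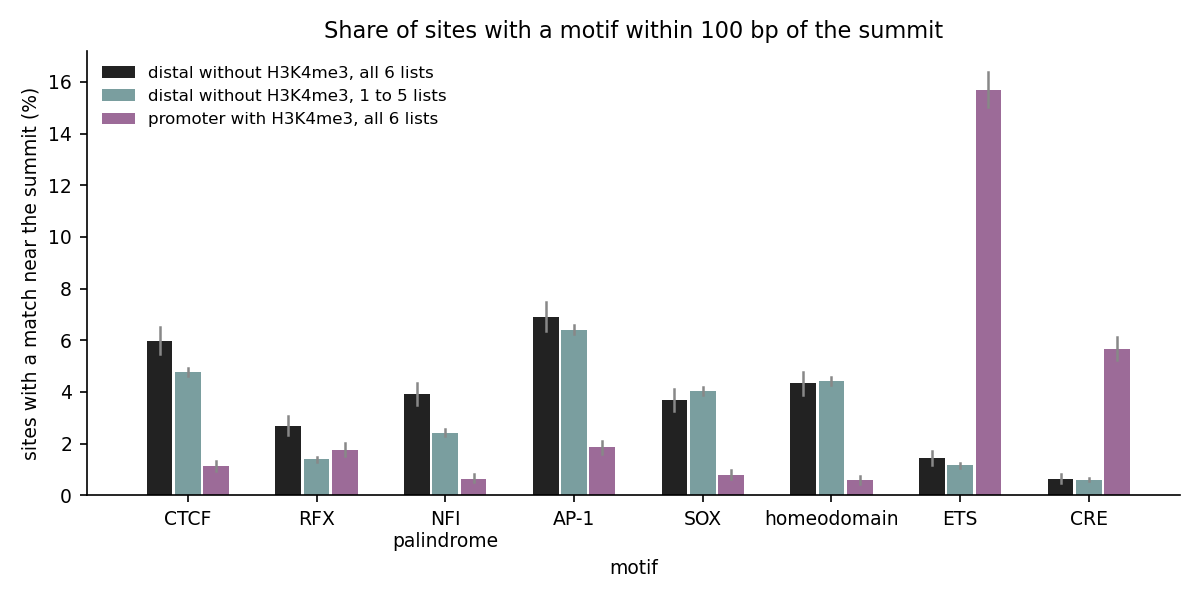
Percentage of sites with a motif match within 100 bp of the summit, for distal sites without H3K4me3 in all 6 lists, the same class in 1 to 5 lists, and promoters with H3K4me3; grey lines are exact binomial 95% intervals. CTCF (5.98% against 4.77%), RFX and NFI palindromes are more frequent at the distal sites of all 6 lists than at those of fewer lists, and ETS and CRE motifs are more frequent at the promoters with H3K4me3 (15.7% and 5.68%) than in both distal classes.

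Words of 8 bases were also counted without a motif in mind, after the data were seen. Of 1449 words present at 2% or more of the distal sites, GCCTGCCA had the highest ratio to the distal sites in 1 to 5 lists, 4.78% against 2.70% (a ratio of 1.77). CCTGCCAA followed, with 4.31% against 2.60%. Of the leading 15 words, 4 held the NFI element, and 2 (ATGGCAAC and GGTTGCCA) held GTTGCC on one strand, the side of an X-box. At the other end were AAAACAAA (2.12% against 3.26%), AAAAGAAA and ACACACAC (3.13% against 4.29%).

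The motifs were gathered at the summits. CTCF matches numbered 26.5 per 1000 sites and 50 bp within 50 bp of the summit and 0.327 at 500 to 1000 bp, a ratio of 81.1. The ratio was 18.4 for RFX, 3.53 for the E-box CAGCTG, 2.44 for the NFI element and 2.14 for AP-1. Homeodomain matches were fewer near the summit than in the flanks, 10.8 against 16.1. Bases near the summit differ in composition from the flanks, and the part of this in the ratios of the short motifs was not tested.

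**Figure D3:**
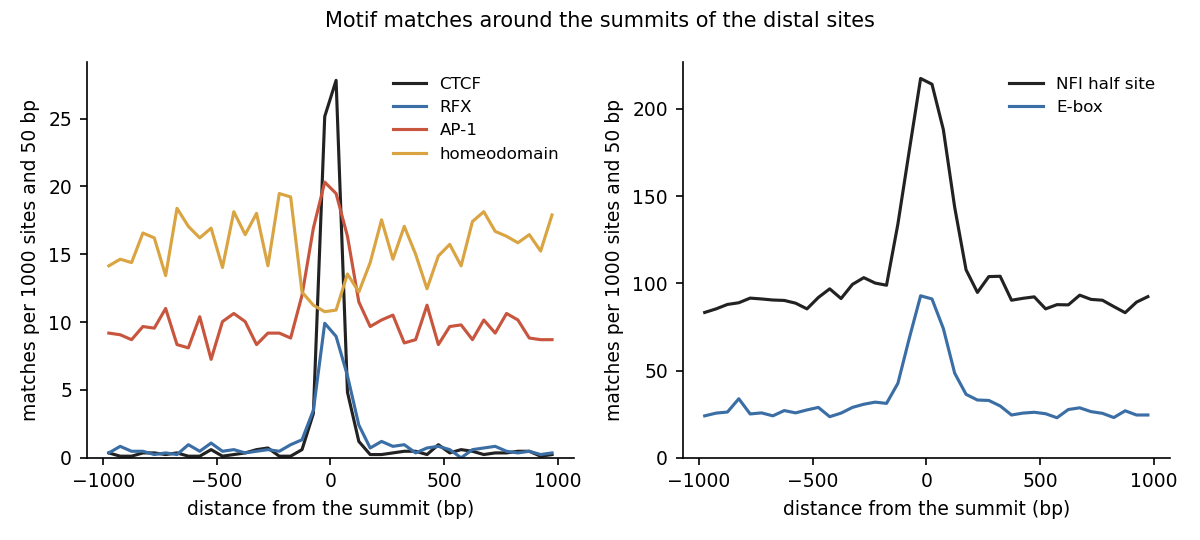
Matches per 1000 distal sites and 50 bp at distances up to 1000 bp on either side of the median summit, for 4 motifs on the left and the NFI element and E-box CAGCTG on the right. CTCF and RFX matches are near 0 in the flanks and rise at the summit, while homeodomain matches dip there.

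The summit tended to lie to one side of the centre of the CTCF motif. The 504 matches lay a median of 19.5 bp from the summit. Read along the motif, the summit was downstream of its centre at 347 matches (68.9%) and upstream at 157. The same side was preferred in each list taken alone, with 28.8 to 35.2% upstream over the 6 lists. Matches were on the plus strand 259 times and on the minus strand 245 times. Of 473 neighbouring pairs on a chromosome, 24.3% pointed towards each other, 24.7% away from each other and 51.0% the same way.

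The comparison of states asked how far sites that were open throughout still differed in strength. It used log2 fold enrichment centred on the median of the 22589 sites in each list, and limma with Benjamini-Hochberg adjustment over all of them. The rule treats the 6 lists alike and sets no direction, but a peak in every list limits how low a site can be. Between activated and quiescent NSPCs, 890 of the 8267 distal sites (10.8%) were higher in activated and 902 (10.9%) higher in quiescent. Over all sites tested these percentages were 6.36% and 6.95%, and over the promoters with H3K4me3 2.03% and 4.00%. Promoters without H3K4me3 had 9.07% in each direction and distal sites with H3K4me3 10.95% and 6.09%, so frequent calls were not particular to the distal sites without the mark. The median difference was -0.07 (log2) over the distal sites and -0.07 over all sites. In all, 1792 distal sites (21.7%) were called and the others were not. With the mean over subpeaks, 420 were higher in activated and 353 in quiescent. Both counts also fell without quiescent replicate 1 or 2, more so for sites higher in quiescent, with median differences of -0.01 and -0.07. Calls were fewer at weak sites. Among the weakest 25% by percentile 3.0% were higher in activated and 4.64% in quiescent, and among the strongest 25% 14.4% and 15.5%.

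Sites with a CTCF motif were seldom called between activated and quiescent NSPCs. Of the 494, 9 (1.82%) were higher in activated and 18 (3.64%) in quiescent NSPCs, and with up to 1 mismatch 3.38% and 5.95% of 1478. Leaving out a quiescent or activated library lowered these shares, to 0.546% and 1.09% without quiescent replicate 1, 1.08% and 1.25% without quiescent replicate 2, 0.901% and 2.16% without activated replicate 1 and 0.866% and 2.60% without activated replicate 2. The median difference was -0.09. Between reactivated and quiescent NSPCs, 9 were higher and 84 (17.0%) lower in reactivated, beside 18.04% higher and 18.7% lower over all distal sites. Of the CTCF sites, 42 (8.50%) were lower in reactivated than activated, beside 9.29% of all distal sites and 14.5% of all sites tested. CTCF sites had a median percentile of 63.3 and 64.0 in the quiescent lists and 61.0 and 55.0 in the activated, against 64.9, 67.3, 67.3 and 58.3 for all distal sites. In the reactivated lists they stood lower, at 72.6 and 73.0 against 83.1 and 82.9. The site at chr1:135752921-135753276, an intergenic site 12987 bp upstream of Phlda3 whose sequence leads those printed above, had a fold enrichment of 8.11 and 7.39 (quiescent), 10.8 and 9.78 (activated) and 14.9 and 15.4 (reactivated). After centring, activated and quiescent differed by 0.19 ± 0.15 (SE, log2; limma adjusted p = 0.442).

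Sites with an E-box CAGCTG leaned to activated NSPCs. Of 2235, 417 (18.7%) were higher in activated and 179 (8.01%) in quiescent, with a median difference of 0.11. SOX sites had 18.8% and 8.22% of 304, AP-1 sites 16.1% and 7.53% of 571, and RFX sites 14.4% and 4.05% of 222. Without quiescent replicate 2 the activated shares were 10.7% for SOX and 7.88% for RFX, beside 7.28% for all distal sites, and without activated replicate 1 they were 11.9% and 9.33%. SOX was also at 12.0% without quiescent replicate 1 and 12.3% without activated replicate 2. With the mean over subpeaks RFX, at 4.51%, lay below all distal sites (5.08%). In that setting the activated shares also fell to 9.71% for the E-box CAGCTG, 8.76% for AP-1 and 6.25% for SOX. SOX then stood near all distal sites in both directions, with 4.28% higher in quiescent beside 4.27%. The quiescent shares fell without quiescent replicate 1 or 2, to 4.08% and 4.63% for the E-box CAGCTG, 4.13% and 3.47% for AP-1, 4.52% and 4.35% for SOX and 1.53% and 2.49% for RFX, beside 5.78% and 5.68% for all distal sites. For CAGATG the percentages were 14.8% and 8.47%. NFI elements stood near the average of the distal sites in both directions, at 11.4% and 12.4%. Both NFI shares fell when a quiescent or activated library was left out. Their order turned round when either quiescent library was left out and in other settings, such as quantile normalization (10.99% and 10.26%). Homeodomain sites had 8.38% and 12.0% of 358. The order of these homeodomain shares turned round in 5 settings: without quiescent replicate 1 (7.64% and 6.21%), without quiescent replicate 2 (7.13% and 5.34%), with quantile normalization (9.50% and 9.22%), with the mean over subpeaks (5.59% and 5.03%) and with no centring (13.97% and 4.75%). A site can hold several motifs, and these groups overlap. Over the 19 settings tried, the CTCF share stayed under that of all distal sites in both directions, and the share of E-box CAGCTG sites higher in activated stayed above it.

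**Figure D4:**
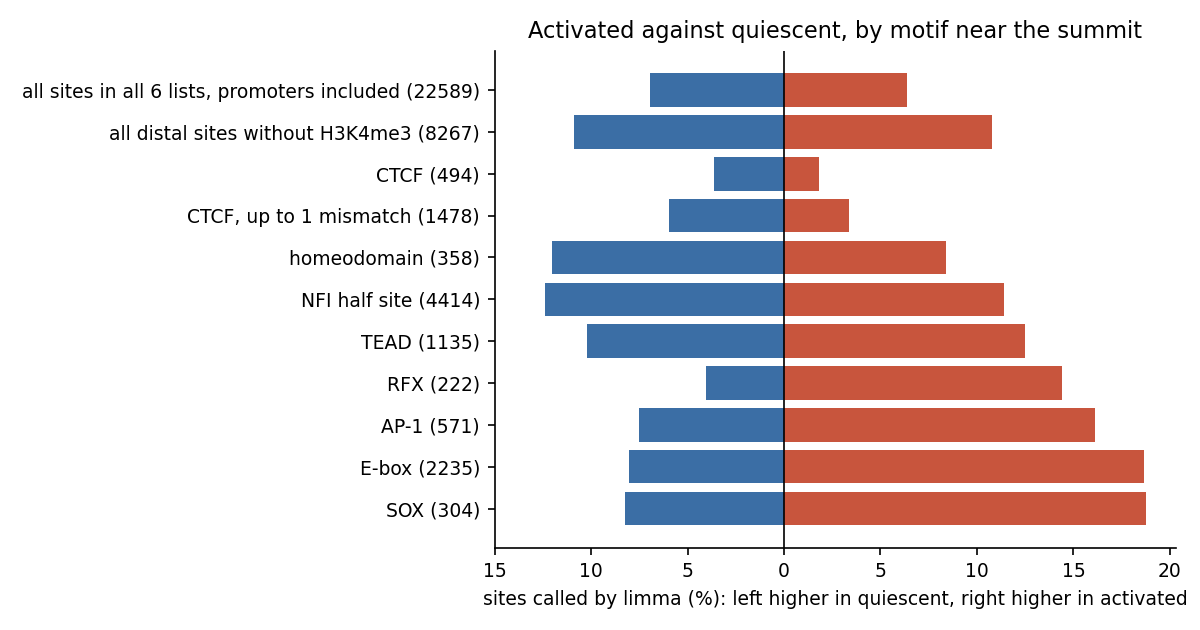
Percentage of sites called by limma between activated and quiescent NSPCs (adjusted p under 0.05), to the right those higher in activated and to the left those higher in quiescent, for all sites in all 6 lists, the distal sites without H3K4me3 and groups of these with a motif (number of sites in brackets). CTCF sites have the shortest bars (1.82% and 3.64%), and E-box and SOX sites reach 18.7% and 18.8% on the activated side.

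The sites with the largest differences were picked for them, so that a gap between their groups is a description. The fold enrichments of the activated and quiescent libraries, after centring, did not overlap at 4922 of the 8267 distal sites (59.5%), beside 53.2% of all sites tested. The site higher in activated NSPCs by the most was chr1:104746748-104747294, 21529 bp upstream of Cdh20, which encodes a cadherin. Fold enrichment was 3.94 and 3.67 (quiescent), 18.4 and 16.1 (activated) and 17.8 and 19.02 (reactivated). Its sequence printed above has 1 E-box CAGCTG. The difference between activated and quiescent was 1.95 ± 0.15 (SE, log2; limma adjusted p = 1.5e-07), a fold of 3.87 after centring.

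A site in an intron of Eldr, a long non-coding RNA gene, at chr11:16941183-16942202, lay 9809 bp upstream of Fbxo48, the nearest protein-coding gene, and 23.0 kb past the end of Egfr, the gene of the EGF receptor. Quiescent NSPCs had fold enrichments of 2.89 and 3.29, activated NSPCs 14.4 and 12.2 and reactivated NSPCs 14.1 and 17.5 (activated minus quiescent 1.884 ± 0.179, limma adjusted p = 1.1e-06). Over the 16 alternative settings that still tested this site, the difference was 1.19 to 2.11. The intronic site of Mrps28 at chr3:8830863-8831254 had 3.68 and 3.29, 16.03 and 12.8, and 21.8 and 21.02 in the same order. It holds 3 E-boxes CAGCTG in the printed sequence. The sites at chr12:83194496-83195352, far downstream of Rgs6, and chr7:59027434-59027877, 201115 bp upstream of Ube3a, were higher by 1.85 and 1.81. All 5 of these sites had an E-box CAGCTG within 100 bp of the summit. After centring, reactivated minus activated was -0.56 at the Cdh20 site (limma adjusted p = 0.012) and -0.47 to -0.08 at the others, which were not called, while all 5 were called higher in reactivated than quiescent, by 1.34 to 1.75.

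Among the sites higher in quiescent NSPCs the first was chr1:73538593-73539025, an intergenic site far from Tns1. Fold enrichment was 13.6 and 12.1 (quiescent), 3.32 and 3.14 (activated) and 11.6 and 13.2 (reactivated). Activated minus quiescent was -2.21 ± 0.18 (SE, log2; limma adjusted p = 3.2e-07). The intronic site of Dync2h1, a motor protein gene of cilia, at chr9:6985998-6986589 had 15.4 and 14.7, 6.37 and 2.57, and 13.3 and 10.95. Here the activated replicates differed from each other more than at the other sites, yet both lay below both quiescent libraries.

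The site at chr10:69326405-69326973, 16084 bp downstream of the start of Cdk1, a kinase that drives cells into mitosis, had 10.2 and 11.5 (quiescent), 2.79 and 3.71 (activated) and 11.4 and 8.90 (reactivated). The sites at chr7:65577084-65577529, upstream of Tjp1, and chr12:8535754-8536752, in an intron of Slc7a15, had activated minus quiescent differences of -2.112 and -2.105. Over 16 alternative settings the difference at the Slc7a15 site was -2.19 to -1.40. None of these 5 held an E-box CAGCTG within 100 bp of the summit. After centring, all 5 were called higher in reactivated than activated, by 0.64 to 1.28, and lower in reactivated than quiescent, with differences of -1.48 to -0.93.

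**Figure D5:**
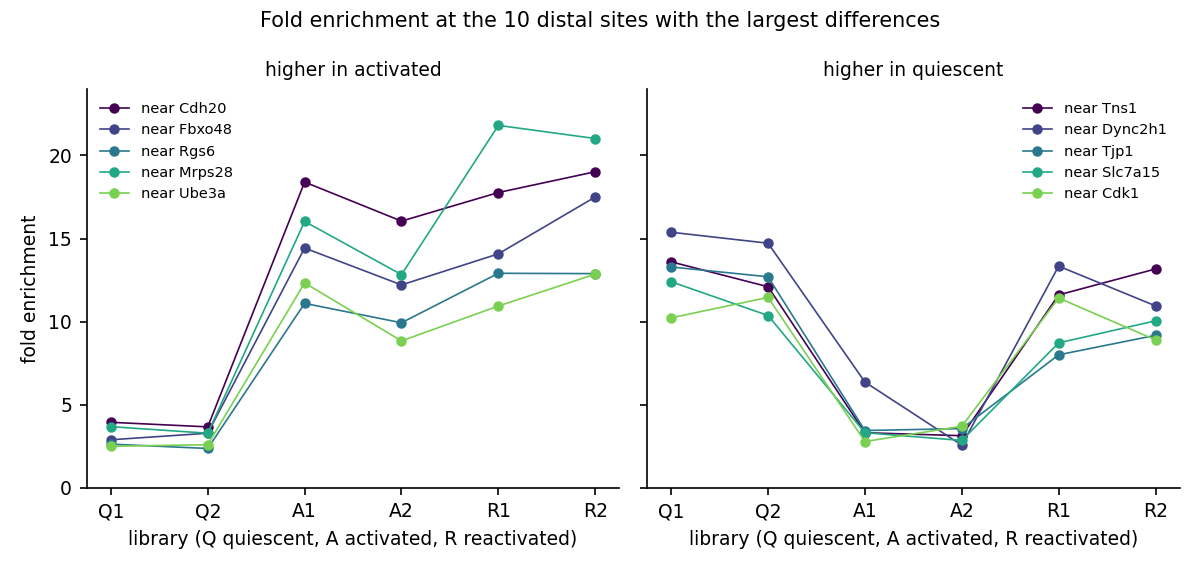
Fold enrichment in each ATAC-seq library at the 5 distal sites with the largest differences in each direction, named by the nearest protein-coding gene. Sites higher in activated lie under 4 in both quiescent libraries and at 8.84 or more in the activated and reactivated ones; sites higher in quiescent lie at 10.2 or more in quiescent and at 6.37 or less in activated libraries.

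Among the 890 distal sites higher in activated than quiescent NSPCs, 667 were also called higher in reactivated than quiescent and 107 were called lower in reactivated than activated. Among the 902 higher in quiescent, 412 were called lower in reactivated than quiescent and 372 higher in reactivated than activated. These comparisons share libraries, so the counts are a description. Between reactivated and quiescent NSPCs, 1491 distal sites (18.04%) were higher in reactivated and 1542 (18.7%) higher in quiescent, with 11.5% and 25.7% over all sites tested. Between reactivated and activated NSPCs, 1018 (12.3%) were higher in reactivated and 768 (9.29%) in activated, with 7.55% and 14.5% over all sites.

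Without reactivated replicate 1, the counts fell to 766 and 995 between reactivated and quiescent, and to 194 and 242 between reactivated and activated, where the balance turned round. All of these counts also fell when reactivated replicate 2 was left out instead. Either choice leaves 1 reactivated library in the fit. The balance of these 2 comparisons also depended on scaling. With quantile normalization the distal sites divided into 1609 and 960 between reactivated and quiescent and into 1119 and 423 between reactivated and activated. With centring on the distal sites alone they divided into 1191 and 2058 and into 694 and 1398. With no centring the median of all sites moved by 0.88 and 0.65 (log2), and 5852 and 4946 distal sites were higher in reactivated. For activated against quiescent the division was 855 and 737 with quantile normalization, 927 and 844 with centring on the distal sites and 1196 and 337 with no centring, which moved the median of all sites by 0.22. Of the 318 mostly repeat-masked sites, 242 (76.1%) were called lower in reactivated than quiescent, and of the 133 with raised local background 122 (91.7%). Without both groups, 1473 distal sites were higher in reactivated and 1232 in quiescent, and 910 and 881 between activated and quiescent.

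Distal sites were then read near genes of chosen lists, from 25 kb upstream to 10 kb downstream of a TSS. Of all 20780 protein-coding genes, 3197 (15.4%) had one. Of 23 genes of neural stem cells and progenitors 9 had one (39.1%), of 23 genes of quiescence and astroglia also 9 (39.1%), of 17 of translation 7 (41.2%) and of 17 of the cell cycle 4 (23.5%). Of 18 neuronal genes 1 had one, and of 17 genes of other tissues 1. The lists are short and were chosen with earlier results known. The sites of the stem cell list had a median difference between activated and quiescent of 0.19 (log2) and those of the quiescence list of -0.28, beside -0.07 over all sites tested. No distal site lay in the windows of Sox2, Pax6, Nes or Egfr.

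Of the 13 sites near stem cell genes, 2 were higher in activated and 1 in quiescent NSPCs, near the 21.7% called over all distal sites. Of the 3189 sites in the windows of all protein-coding genes, 258 and 300 were called. Fgfr2, an FGF receptor gene, had a site in an intron at chr7:130215267-130216269 with a fold enrichment of 2.50 and 3.36 (quiescent), 6.70 and 8.13 (activated) and 12.3 and 10.9 (reactivated) (activated minus quiescent 1.13 ± 0.24, limma adjusted p = 0.0027). The site 16269 bp upstream of Fgfr3, printed above with its NFI, SOX and TEAD motifs, had 3.07 and 1.99, 6.99 and 3.98, and 10.6 and 11 (0.87 ± 0.25, limma adjusted p = 0.023). Each of the calls was lost in 3 of 16 alternative settings, and for Fgfr3 these included leaving out quiescent replicate 2 (0.61, adjusted p = 0.221) or activated replicate 1 (0.60, adjusted p = 0.208). At both receptor genes the quiescent libraries were below the activated ones. After centring, reactivated minus activated was -0.0042 at Fgfr2 (limma adjusted p = 0.992) and 0.38 at Fgfr3 (limma adjusted p = 0.283).

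Hes5, a target of Notch signalling, had a pair of sites upstream. The one at chr4:154948239-154948936 had 6.85 and 7.81 (quiescent), 6.03 and 3.32 (activated) and 7.15 and 7.79 (reactivated), and was higher in quiescent (-0.93 ± 0.23, limma adjusted p = 0.0089). After centring, this site was also called lower in reactivated than quiescent (-0.85, limma adjusted p = 0.0067). Its activated replicates differed widely, and the call between activated and quiescent was lost in 4 of 17 settings. The difference was -0.60 without activated replicate 2 (limma adjusted p = 0.138), -0.79 without quiescent replicate 2 (limma adjusted p = 0.121), -0.71 with no centring (limma adjusted p = 0.098) and -0.37 with the mean over subpeaks (limma adjusted p = 0.451). The other, which held a CTCF motif, had 5.75 and 4.99, 6.64 and 6.39, and 6.39 and 6.76, and was not called between activated and quiescent (0.06 ± 0.21, limma adjusted p = 0.891). Its nearest protein-coding gene was Tnfrsf14, 15894 bp away, and not Hes5. Sites near Slc1a3, the glutamate transporter gene of astroglia and stem cells, Hes1, Notch1, Olig2, Fgfr1 and Vim were not called between activated and quiescent. The nearest protein-coding gene of the Vim site was Trdmt1. Between reactivated and activated, the Hes5 site with the CTCF motif and 1 site each of Slc1a3, Hes1, Notch1 and Fgfr1 were called lower in reactivated, with differences of -0.77 to -0.64 (limma adjusted p 0.0076 to 0.048), beside 9.29% of all distal sites and 14.5% of all sites tested. The strongest site of the genes just named, in an intron of Fgfr1 at chr8:25537157-25537733, was called in no comparison and had 7.41 and 5.12 (quiescent), 9.95 and 7.70 (activated) and 11.4 and 11.3 (reactivated).

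Of the 15 sites near genes of quiescence and astroglia, 1 was higher in activated and 2 in quiescent NSPCs, again near the 21.7% over all distal sites. Nfix, an NFI gene, had 3 sites, of which the one at chr8:84712289-84712817, in an intron, had 6.87 and 6.32 (quiescent), 4.24 and 3.596 (activated) and 8.81 and 7.74 (reactivated) (-0.98 ± 0.22, limma adjusted p = 0.0037). An intronic site of Foxo3, which encodes a forkhead protein of stem cell maintenance, at chr10:42251135-42251625 had 6.05 and 6.04, 3.45 and 4.99, and 9.37 and 8.58 (-0.76 ± 0.25, limma adjusted p = 0.042). Both sites were lowest in activated NSPCs. After centring, reactivated minus quiescent was -0.55 at the Nfix site (limma adjusted p = 0.0498) and -0.31 at the Foxo3 site (limma adjusted p = 0.339), although their uncentred values were highest in reactivated. Between activated and quiescent, the Nfix call held in all 17 alternative settings that still tested the site, and the Foxo3 call in 8 of 17. Without activated replicate 1 the Foxo3 difference was -0.36 (limma adjusted p = 0.394).

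Gfap, the intermediate filament gene of astrocytes, had a site at chr11:102898314-102898952 that was higher in activated, with 2.80 and 3.55, 6.70 and 5.36, and 10.3 and 10.8 (0.71 ± 0.23, limma adjusted p = 0.041). This call was lost in 6 of 16 settings, and without quiescent replicate 1 the difference was 0.45 (limma adjusted p = 0.25). The strongest site of the list was near Aqp4, the water channel of astroglia, at percentile 98.8, with 15.1 and 14.1, 13.7 and 14.3, and 18.3 and 18.8. It was not called between activated and quiescent (-0.28 ± 0.13, limma adjusted p = 0.174). After centring it was called lower in reactivated than quiescent (-0.53, limma adjusted p = 0.0038). Sites near Bmpr1b, a BMP receptor gene, Id3, Nfia, Nfic and Hopx were not called between activated and quiescent either. The stronger of the Bmpr1b sites, at percentile 90.2, had 13.5 and 12.7 (quiescent), 10.3 and 11.8 (activated) and 6.67 and 11.7 (reactivated) (-0.47 ± 0.20 between activated and quiescent, limma adjusted p = 0.124). It was called lower in reactivated than in quiescent (-1.44, limma adjusted p = 2.6e-05) and in activated (-0.97, limma adjusted p = 0.0026). The Nfic site at chr10:81395224-81395484 was also called lower in reactivated than activated (-1.18, limma adjusted p = 0.0014). So were the Nfix sites at chr8:84815565-84815879 and chr8:84810900-84811305 (-0.68 and -0.58, limma adjusted p = 0.045 and 0.035). None of the list was called higher in reactivated than activated.

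Among the 8 sites near genes of translation, an intronic one 18565 bp upstream of Rpl13, a ribosomal protein gene, was higher in quiescent than activated NSPCs. It had 6.05 and 4.89 (quiescent), 2.79 and 3.14 (activated) and 13.8 and 14.5 (reactivated) (-1.10 ± 0.22, limma adjusted p = 0.0018). The site upstream of Eif4e, which encodes the cap-binding initiation factor, was higher in activated, with 3.68 and 2.83, 6.38 and 5.56, and 12.7 and 12.4 (0.66 ± 0.21, limma adjusted p = 0.043). The Rpl13 call held in all 16 settings that still tested the site, whereas the Eif4e call was lost in 7 of 17, 6 of them without 1 library. The 4 sites near cell cycle genes (Ccne1, Mki67, Mcm5 and Top2a) were not called between activated and quiescent, nor were the single sites near Map2, of the neuronal list, and Myog, of the list of other tissues. Between reactivated and activated, the Top2a site (-0.70, limma adjusted p = 0.032) and the Eef2 site (-1.47, limma adjusted p = 0.00034) were called lower in reactivated. The Rpl13 and Rpl7 sites were called higher (1.61 and 0.46, limma adjusted p = 0.00012 and 0.048). Called sites of all lists were chosen for naming after their values were seen.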

How the data were processed

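ATAC-seq peak lists of 6 libraries and H3K4me3 peak lists of 2 libraries were used as deposited. By the methods and the submitters' processing notes, the authors trimmed reads with Trim Galore 0.4.0, aligned them to mm10 with Bowtie2 2.2.5, handled them with Picard 1.88 and SAMtools 1.3.1, called ATAC-seq peaks for each library at a false discovery rate of 0.05, and, for reactivated NSPCs, called them from a subset of the reads. H3K4me3 was called as broad peaks (q 0.05, broad cutoff 0.01, extension 150 bp). The deposited columns hold the ratio of the summit pileup to its local background (fold enrichment), the −log10 p and −log10 q values, a peak score made from them by the authors and the summit offset. Read depth was not given in these files, and it limits which sites were called in each list.

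Peaks were merged and classed against GENCODE TSSs, and the members, gene lists and motifs were chosen with earlier results of these data known. The strongest peak of a site in each list gave its log2 fold enrichment, which was centred on the median of the 22589 sites in all 6 lists and tested by limma 3.58.1 (R 4.3.3) with a mean trend, over all these sites and the 3 states. Called means an adjusted p under 0.05. Shares have exact Clopper-Pearson 95% intervals. Python 3.11.15 with pandas 2.3.3, scipy 1.17.1 and pysam 0.24.0 was used, with BLAST+ 2.17.0 for mitochondrial matches of at least 50 bp. Scripts were tested on simulated data, in which limma recovered 84% of sites changed by 1 (log2) in the comparison of activated and quiescent. Sites were named by fixed rules: the 10 strongest, the 5 with the largest differences in each direction, the strongest near each gene of 2 lists, the longest runs and the strongest with each motif. Outside these rules, called sites near genes of all lists were named after their values were seen. Marker promoters were checked against the labelled cell type. Alternatives changed peak strength, list length, promoter window, TSSs, H3K4me3 distance, merging, motif window, scaling, subpeaks, model and libraries. Input libraries were not analysed here.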

Additional observations from a re-analysis of the deposited data

How the results depend on the processing

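All 8 results of the number of sites, the CTCF share and the 6 counts of calls were recomputed in 137 alternatives, of which 36 moved the value (a count by over 1.5 times). With peaks of −log10 q of 10 or more, 3402 sites remained, 5.41% with CTCF, and calls were 300 and 279 (activated, quiescent), 638 and 582 (reactivated, quiescent) and 411 and 341 (reactivated, activated). With the mean over subpeaks the calls in this order were 420 and 353, 687 higher in quiescent than reactivated, and 678 and 231. With equally long lists 843 and 434 sites were higher in quiescent and in activated than in reactivated, and with quantile normalization 960 and 423. The CTCF share was 5.09% in a window of 50 bp. Leaving out each library in turn gave 8332 to 10408 sites, CTCF shares of 5.69 to 6.66%, 648 to 794 sites higher in activated and 514 to 923 in quiescent (514 without quiescent replicate 2, 559 without quiescent replicate 1). It gave 766 to 1655 sites higher in reactivated and 995 to 2207 in quiescent, and 194 to 1036 higher in reactivated and 242 to 890 in activated. The lowest of these last 4 counts all came without reactivated replicate 1.

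Chosen after seeing the data, 17.9% had CTCF with up to 1 mismatch, 1398 sites were higher in activated than reactivated with centring on the distal sites, and with no centring 337 were higher in quiescent than activated, 5852 and 83 between reactivated and quiescent and 4946 and 66 between reactivated and activated. The cause of these shifts was not tested. Replicate numbers did not pair the libraries (r of deviations -0.0026, 0.043 and -0.019), and a replicate block gave 900 and 939, 1519 and 1549, and 1048 and 770 calls. Of 297 alternatives for the 18 sites named as called between activated and quiescent, 32 lost the call and 0 reversed. Settings in which a site was no longer among the sites tested are not counted in these or in the numbers of settings given above for single sites. Merging across gaps of 150 bp was run for the number of sites and CTCF only.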
